A study of Mus musculus with 2 samples.

Results

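The glycolysis set described here holds 10 mouse genes: the glucose transporter Slc2a1, the 8 enzymes Hk2, Pfkp, Aldoa, Tpi1, Pgk1, Pgam1, Eno1 and Pkm, and the lactate dehydrogenase Ldha. They were chosen by gene symbol, and they match 11 of the 33696 features of the matrix. The symbol Aldoa names a pair of rows. ENSMUSG00000030695 held 23106 UMIs in A cells and 23791 in B cells (both defined below), and ENSMUSG00000114515 held 12 and 6, so Aldoa was taken as their sum. A UMI (unique molecular identifier) marks 1 captured RNA molecule.

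Expression was read by single-cell RNA sequencing at the 3′ end of transcripts, in 1 droplet library. The cells were KPCY 6419c5, a mouse cell line of pancreatic ductal adenocarcinoma. The library pools 2 clones, 76 and 84, that were mixed in equal numbers after 19 days of editing with BASELINE, a lineage recorder built on a Cas12a adenine base editor. Per the labels, the editor was transfected before single cells were sorted and expanded into clones, and no unedited control is used here. A second pool, of 5 clones, was not analysed here.

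No label ties a cell to a clone, so cells were placed by markers outside the glycolysis set. An A cell had at least 2 UMIs of Pde10a, Plcb1, Galnt18, Arhgap15 and Ceacam1 together and at least 3 times its UMIs of the B markers. A B cell met the same rule for S100a7a, Rgs20, Hs6st2, Ccbe1, Ctse and Mal. Of 22178 barcodes, 21361 passed the cell filter, and they gave 7816 A cells, 8936 B cells and 4609 cells in neither group. Whether A and B cells are the clones was not tested. The median depth was 4700 UMIs in A cells and 5440 in B cells, and the median mitochondrial share was 3.19% and 1.89%. The ductal or epithelial marker list summed to 2740 CPM in A cells and 7776 CPM in B cells, with 7 of its 8 genes at or over 1 CPM. Epcam was low, with 31.8 and 3.16 CPM, and Cldn4 nearly absent, with 0.199 and 0.379 CPM. The immune, fibroblast, endothelial, endocrine and erythroid lists ran from 0.0497 to 4.37 CPM in A cells and from 0.0758 to 3.16 CPM in B cells, and the acinar list, led by Prss2, reached 13.7 and 4.38 CPM, with Cpa1, Amy2a2 and Ptf1a at 0.

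Glycolysis turns glucose into pyruvate in the cytosol and yields ATP without oxygen. Slc2a1 (GLUT1) brings glucose into the cell, and hexokinase traps it by adding a phosphate. Phosphofructokinase commits the sugar to the pathway, aldolase splits it and triose phosphate isomerase interconverts the products. Phosphoglycerate kinase and pyruvate kinase make ATP, with phosphoglycerate mutase and enolase between them, and lactate dehydrogenase A reduces pyruvate to lactate and restores NAD+. Many of these genes are textbook targets of the hypoxia-inducible factors and of Myc, and many tumour cells are known to take up much glucose and release lactate.

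The 10 genes together took nearly the same part of the RNA in both groups, but the genes that made up that part differed. Their UMIs summed to 4045 CPM in A cells (interval 4026 to 4065) and 4249 CPM in B cells (4231 to 4266), a fold of 1.05 for B over A (1.04 to 1.06). CPM is a gene's summed UMIs scaled to the same total of UMIs in each group. Intervals are exact Poisson ones, or exact conditional ones for a ratio, at 95%, and they cover counting error only. With 1 library there is no replicate, no test and no p-value. Ldha was higher in A cells, and Pgk1, Pgam1 and Hk2 were higher in B cells. These 4 were past 1.5-fold also among cells of 2000 to 4000, 4000 to 6000 and at least 6000 UMIs, and among cells of 2 to 4% mitochondrial share.

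**Figure D1:**
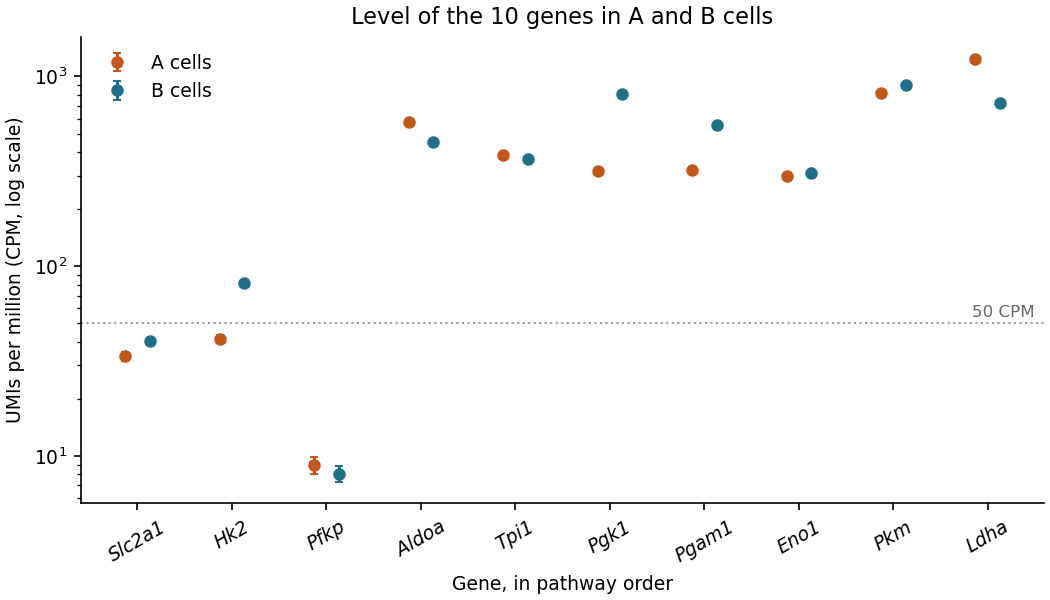
Level of each gene in CPM (log axis) in A cells and B cells, in pathway order, with exact Poisson intervals that cover counting error only and are mostly smaller than the points. Pgk1 lies at 317 CPM in A cells and 812 CPM in B cells and Ldha at 1241 and 726 CPM, whereas Tpi1, Eno1 and Pkm lie close together.

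A gene was called different where its CPM differed by more than 1.5-fold and reached 50 CPM in either group. Of the 10 genes, 8 reached 50 CPM, all but Slc2a1 and Pfkp. Of these 8, 1 was higher in A cells, 3 were higher in B cells and 4 were within 1.5-fold. Over all 3908 genes of at least 50 CPM, 19.0% were higher in A cells and 13.1% in B cells, 32.0% in all. At 2-fold only Pgk1 was called, against 7.60% of all genes higher in A cells and 6.68% higher in B cells, 14.3% in all. The median log2 ratio of A over B was -0.09 over the 8 genes and 0.11 over all genes, and the median absolute log2 ratio was 0.56 and 0.37.

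For glucose entry and trapping, Slc2a1 had 33.6 CPM in A cells (31.8 to 35.4) and 40.3 CPM in B cells (38.6 to 42.0). Hk2, the inducible hexokinase, had 41.5 CPM (39.5 to 43.5) and 81.4 CPM (79.0 to 83.9). That is 1.96-fold more in B cells (1.86 to 2.08). Hk1, the other main hexokinase, did not share this difference in level, with 67.6 CPM in A cells and 66.8 CPM in B cells. The Hk2 call was lost among cells under 2% mitochondrial UMIs, where the 222 A cells and 5484 B cells had 62.5 and 80.9 CPM and a log2 ratio of -0.37 (-0.73 to -0.04). It held among the 6547 A cells and 3419 B cells at 2 to 4%, with -0.98.

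In the upper part of the pathway, from sugar phosphate to triose, no called difference was found. Pfkp, the platelet phosphofructokinase, was scarce, with 8.91 CPM in A cells and 8.05 CPM in B cells, and the interval of its log2 ratio ran from -0.06 to 0.35. Its log2 ratio moved with the mitochondrial class, to 0.95 (0.20 to 1.63) under 2%, from 19 UMIs in A cells, and -0.82 (-2.76 to 2.28) over 4%, from 2 UMIs in B cells. Pfkl, the liver-type subunit, had 40.9 and 21.5 CPM, 1.90-fold more in A cells (1.76 to 2.06), and Pfkm, the muscle type, 15.4 and 9.80 CPM, 1.57-fold more in A cells (1.40 to 1.77). Both were under 50 CPM, where no call was made. Aldoa had 574 CPM in A cells (567 to 581) and 451 CPM in B cells (445 to 457), 1.27-fold more in A cells. Tpi1 had 387 and 365 CPM, a fold of 1.06. The counting interval of the Aldoa fold (1.25 to 1.30) lies clear of 1.

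The steps that follow Gapdh held the largest difference of the set. Pgk1, an ATP-making enzyme of the pathway, had 317 CPM in A cells (312 to 323) and 812 CPM in B cells (804 to 820), 2.56-fold more in B cells (2.51 to 2.61). Pgam1, which moves the phosphate of phosphoglycerate, had 320 CPM (314 to 325) and 552 CPM (546 to 559), 1.73-fold more in B cells (1.69 to 1.76). Their neighbours in the pathway lay within 1.5-fold. Gapdh had 2579 and 2920 CPM, just before Pgk1, and Eno1, just after Pgam1, had 299.6 and 308.5 CPM. Pkm, which makes pyruvate, had 823 and 904 CPM, 1.10-fold more in B cells. The matrix has 1 row for Pkm, so its splice forms were not told apart.

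At the end of the pathway the direction turned. Ldha had 1241 CPM in A cells (1230 to 1252) and 726 CPM in B cells (719 to 734), 1.71-fold more in A cells (1.69 to 1.73). It gave 30.7% of the UMIs of the 10 genes in A cells and 17.1% in B cells, whereas Pgk1 gave 7.84% and 19.1%. Ldhb, the other somatic lactate dehydrogenase subunit, had 0 UMIs in all 22178 barcodes. A count of 0 was taken to allow 3 UMIs per group, or up to 0.0745 CPM in A cells and 0.0568 CPM in B cells. Ldhc, the testis form, had 4 and 14 UMIs. Without Ldha and Pgk1 the other 8 genes summed to 2487 CPM in A cells and 2710 CPM in B cells. Several of these genes, Gapdh among them, have processed pseudogene copies, and how shared reads were counted is not given in the sources used here. Eno1b, a near-identical copy of Eno1, had 8.57 and 9.10 CPM.

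The promoters of Ldha and Pgk1 are shown because these genes had the highest and the lowest ratio of A over B among the 8 genes of at least 50 CPM. The sequences are the 250 bases before the gene start as RefSeq gives it on build GRCm38.p6, from the first listed start of each gene. They are chr7:46845554-46845803 for Ldha and chrX:106186850-106187099 for Pgk1, both on the + strand. The submitters' processing notes name GRCm39 for the counts, so these coordinates are not on the build of the counts. Capitals mark the letters ACGTG or GCGTG, the core of the hypoxia response element, on either strand (CACGT or CACGC in the printed strand), and matches on opposite strands overlap within CACGTG.
Ldha: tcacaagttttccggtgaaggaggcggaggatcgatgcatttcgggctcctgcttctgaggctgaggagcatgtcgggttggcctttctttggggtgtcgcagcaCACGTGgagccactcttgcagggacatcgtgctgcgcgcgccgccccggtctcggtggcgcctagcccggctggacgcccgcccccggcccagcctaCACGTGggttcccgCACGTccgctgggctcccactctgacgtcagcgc
Pgk1: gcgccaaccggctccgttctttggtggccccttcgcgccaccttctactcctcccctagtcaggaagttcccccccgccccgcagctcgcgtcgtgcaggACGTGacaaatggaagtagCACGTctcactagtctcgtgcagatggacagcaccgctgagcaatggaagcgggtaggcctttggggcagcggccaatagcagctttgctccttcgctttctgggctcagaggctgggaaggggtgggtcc
The Ldha window holds 5 matches and the Pgk1 window 2. Among all 10 genes, the first listed window held the core in 7 and held more than 1 match in 6. Of 27025 first listed windows of all genes, 38.6% held the core and 16.8% held more than 1 match. No match was found in the Aldoa, Tpi1 and Pkm windows, which says only that these letters are not there. A match is a description of the sequence, and binding was not measured.

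The contrast between Ldha and Pgk1 is next described cell by cell. The pair was picked by its ratios and the UMIs are the same, so this restates the contrast and adds no support. Each cell was thinned to 3000 UMIs by random draws, which left out 410 A cells and 109 B cells and kept 7406 and 8827. The 10th percentile, the median and the 90th percentile of Ldha were 1, 3 and 7 UMIs in A cells and 0, 2 and 4 in B cells. For Pgk1 they were 0, 1 and 2 UMIs in A cells and 0, 2 and 5 in B cells. Ldha was above Pgk1 in 84.96% of A cells (84.1 to 85.8%) and in 36.7% of B cells (35.7 to 37.7%). These intervals are binomial ones over the cells of 1 library, and cells are not replicates. Pgk1 was above Ldha in 5.60% of A cells and 45.1% of B cells, and the rest were equal. The ranges overlap, so a single cell at this depth cannot be placed by this pair. Of the UMIs of the pair, Ldha gave 80.1% in A cells and 47.1% in B cells.

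**Figure D2:**
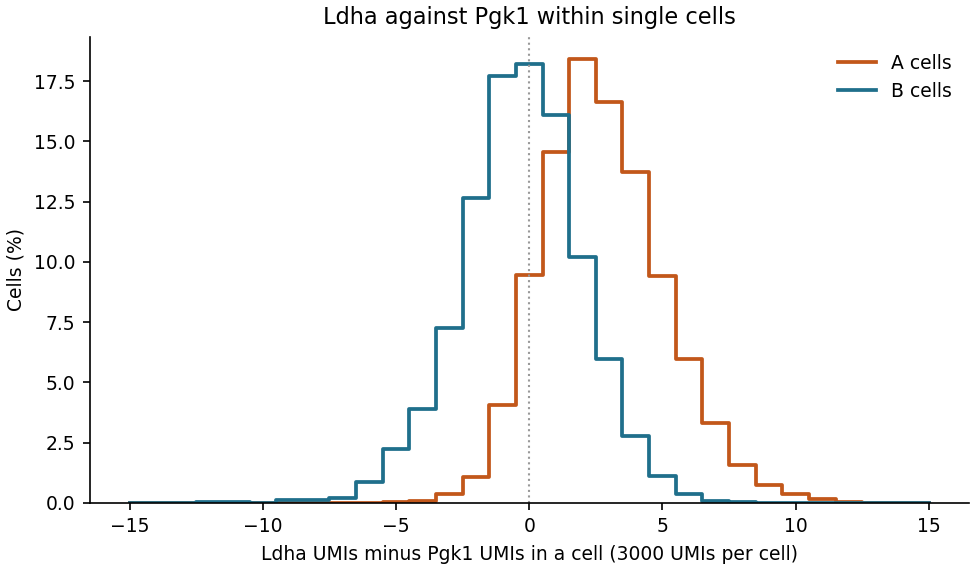
Share of A cells and B cells (percent) at each value of Ldha UMIs minus Pgk1 UMIs, after thinning every cell to 3000 UMIs. The A cells lie to the right of 0, with Ldha above Pgk1 in 84.96% of them, and the B cells are spread about 0, with Ldha above Pgk1 in 36.7%.

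At 3000 UMIs a cell, Ldha was seen in 96.7% of A cells (96.3 to 97.1%) and 86.8% of B cells (86.1 to 87.5%), with exact binomial intervals. Pgk1 was seen in 59.6% (58.5 to 60.8%) and 89.7% (89.1 to 90.3%), and Pgam1 in 60.4% and 79.9%. Hk2 was seen in 11.3% (10.6 to 12.04%) and 21.1% (20.3 to 21.98%). Without thinning these shares were 98.8% and 96.4% for Ldha, 74.8% and 97.2% for Pgk1, 75.8% and 93.5% for Pgam1, and 18.4% and 35.6% for Hk2. Pkm, Aldoa, Tpi1, Eno1 and Slc2a1 lay between 9.47 and 90.8% in A cells and between 11.1 and 93.1% in B cells. Isozymes of liver, muscle or germ cells give the low end. Pklr was seen in 2.38% of A cells and 3.36% of B cells, and Pgam2, Ldhc, Gapdhs, Pgk2, Slc2a2 and Slc2a4 in at most 0.432% and 0.0793%. The shares of Pfkp, 2.55% and 2.46%, lay next to those of Pklr and above those of the other isozymes named here. Both Pfkp, with 8.91 and 8.05 CPM, and Pklr, with 8.09 and 10.6 CPM, lay above what a count of 0 allows. At such low counts no more was read from these shares.

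The called ratios were set beside those of genes on the same chromosome, a comparison chosen after seeing the data. Of the genes of at least 50 CPM, 99.03% had a chromosome in the RefSeq table. Ldha and Aldoa are on chromosome 7, where the median log2 ratio of the other 253 genes was 0.53, against 0.77 for Ldha and 0.35 for Aldoa. Pgam1 is on chromosome 19, where the median of 137 genes was -0.57, against -0.79 for Pgam1. So Ldha and Pgam1 lay 0.25 and -0.22 from the medians of their chromosomes. Pgk1 is on chromosome X (median 0.11 over 94 genes) and Hk2 on chromosome 6 (0.07 over 206 genes), and they lay -1.47 and -1.04 from those medians. Among the 10 nearest measured genes on each side, the median was 0.51 near Ldha, -0.44 near Pgam1, 0.19 near Pgk1 and 0.17 near Hk2. The part of these chromosome values in the ratios was not tested, and DNA was not measured.

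None of the surrounding pathway genes was called. Of 98 genes in lists of other glycolysis steps, sugar and lactate transport, regulators, branch pathways and hypoxia targets, 22 reached 50 CPM. Of these, 0 passed 1.5-fold, against 19.0% and 13.1% of all genes in the A and B directions, and their median absolute log2 ratio was 0.17 against 0.37. The genes named here were picked with their values known. The nearest to the threshold were Pgls of the pentose phosphate branch (115 and 79.1 CPM, log2 0.54) and Gpi1, the isomerase between hexokinase and phosphofructokinase (144 and 100.2 CPM, log2 0.53). Hif1a had 156 and 117 CPM, and Epas1, of the same list of regulators, was under 50 CPM and is given below. The lactate carrier Slc16a1 had 98.9 and 92.7 CPM, and Bsg, its partner at the membrane, 566 and 610 CPM. Phgdh, which draws carbon into serine, had 594 and 665 CPM.

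**Figure D3:**
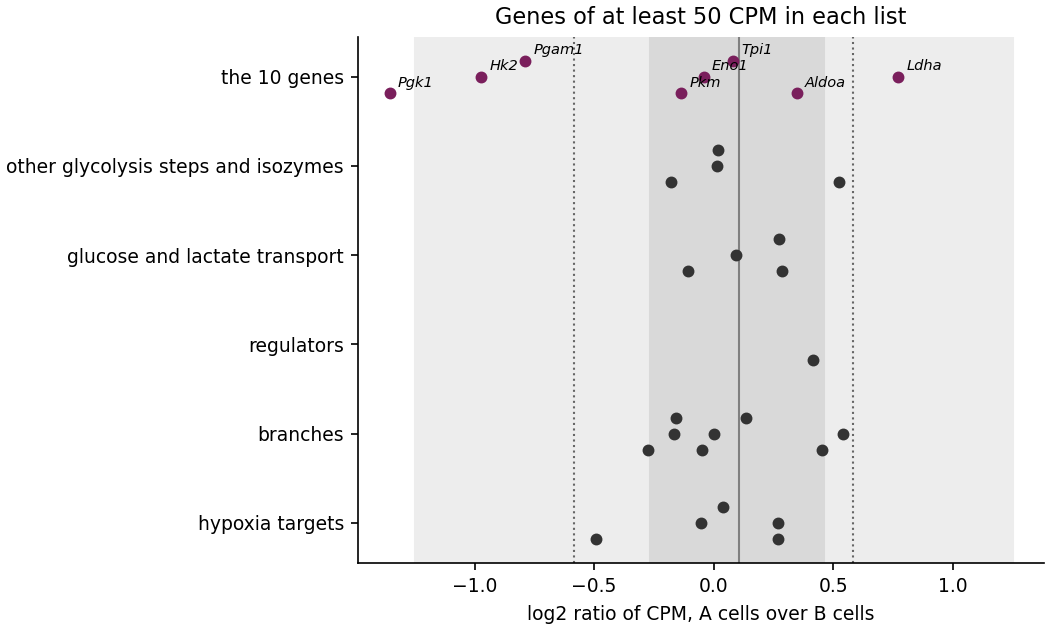
Log2 ratio of CPM, A cells over B cells, for the genes of at least 50 CPM in each list; the grey line is the median of all 3908 such genes, the bands are their 25th to 75th and 5th to 95th percentiles, and the dotted lines mark 1.5-fold. Pgk1, Hk2, Pgam1 and Ldha lie outside the dotted lines, and 0 of the 22 genes of the other lists do.

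With a minimum of 10 CPM, chosen after seeing the data, 54 of the 98 genes were counted, the 22 above among them. Of these 54, 13 were higher in A cells, a share close to the 23.7% of all 8800 genes, and 1 was higher in B cells, beside 12.8% of all genes. The genes named next were chosen after their values were seen. Among the 13 were Gbe1, the glycogen branching enzyme, with 35.5 and 10.9 CPM, the glycogen phosphorylase Pygb with 31.1 and 11.6 CPM, and the glycogen synthase Gys1 with 16.9 and 7.85 CPM. The phosphoglucomutases Pgm1 and Pgm2, which link glycogen to glycolysis, were within 1.5-fold, with 22.8 and 21.6 CPM and 34.2 and 30.2 CPM, and the phosphorylase Pygl had 0 and 1 UMIs. Vegfa, a hypoxia target that drives vessel growth, had 40.0 and 17.1 CPM, and Kdm3a, a histone demethylase, 35.8 and 19.4 CPM. Epas1, listed with Hif1a among the regulators, had 10.1 and 1.52 CPM, 6.68-fold more in A cells (5.25 to 8.60). Pfkl and Pfkm, given above, were also among the 13. G6pc3, a glucose phosphatase, was the 1 gene higher in B cells, with 6.43 and 12.7 CPM. All 4 pyruvate dehydrogenase kinases, which hold pyruvate back from the mitochondrial dehydrogenase, were under 10 CPM, where no call was made, though their counts differed: Pdk1 had 8.49 and 3.28 CPM, Pdk2 2.19 and 1.31 CPM, Pdk3 0.447 and 8.89 CPM, and Pdk4 0 and 8 UMIs.

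Within each group the 10 genes varied together only weakly from cell to cell. Over the 45 pairs, Pearson's r of log(1 + count) had a median of 0.0180 in 7406 thinned A cells and 0.0134 in 8827 B cells. The median over all 7634278 pairs of genes of at least 50 CPM was 7.3e-05 and 0.00012. No pair of the set passed an r of 0.1 in either group, against 0.0887% of all pairs in A cells and 0.0308% in B cells. Among pairs of genes of at least 200 CPM the share was 1.05% and 0.360%. Of the 45 pairs, 6 in A cells and 3 in B cells lay above the 99th percentile of all pairs, 0.0407 and 0.0326. Among the 21 pairs of the 7 genes of at least 200 CPM, 0 lay above the 99th percentile of such pairs, 0.102 and 0.0683. The highest was Aldoa with Ldha in A cells, at 0.0872, and Aldoa with Tpi1 was the highest pair by the lower of both groups, at 0.0597 and 0.0468. Pgk1 and Ldha, which differed in opposite directions between the groups, had 0.0411 in A cells and 0.0274 in B cells. Of the 45 pairs, 35 were above 0 in A cells and 36 in B cells, beside 50.2% and 50.4% of all pairs. Of the 21 pairs of genes of at least 200 CPM, 21 and 19 were above 0. Over all genes of that level, 218633 and 209781 of 426426 pairs were. The cells share 1 library and 1 depth, and mean counts ran from 0.0262 (Pfkp) to 3.74 (Ldha) UMIs a cell in A cells, and correlations of this size in sparse counts were not read as a finding. Over 10 other draws of the thinning, made after seeing the data, the median ran from 0.0115 to 0.0169 in A cells and from 0.00490 to 0.0155 in B cells. The 0.0180 given for A cells thus lay above all 10 draws.

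The same was read as a level. Cells were ranked by their UMIs of the other 9 genes, cut into 5 equal bins, and the level of the gene left out was compared between the top and the bottom bin. In A cells Aldoa had 513 CPM in the bottom and 684 CPM in the top bin, a fold of 1.33 (1.26 to 1.41). Ldha had 1148 and 1378 CPM, a fold of 1.1998, and Pgam1 293 and 363 CPM, a fold of 1.24. In B cells Aldoa had 420 and 512 CPM, a fold of 1.22 (1.15 to 1.29), Pgk1 761 and 882 CPM, a fold of 1.16, and Eno1 306 and 319 CPM, a fold of 1.04. The fold was above 1 for 9 genes in A cells, all but Pfkp (0.781), and for 10 in B cells. Its interval lay above 1 for 7 genes in each group and spanned 1 for Slc2a1, Hk2 and Pfkp in A cells and for Slc2a1, Pfkp and Eno1 in B cells. Between bins by all 10 genes, 45.6% and 41.2% of genes outside the set were above 1. It passed 1.25 for 1 gene, Aldoa, in A cells and 0 in B cells, and 2.05% and 1.28% of genes outside the set did so between bins made from the UMIs of all 10. In the other direction, 2.67% and 1.67% of those genes lay past that fold. Thinned to 2000 UMIs, 2 genes in A cells and 0 in B cells passed, and at 6000 UMIs, where only 1899 A and 3331 B cells were left, 5 and 2 passed. The share of other genes at these 2 depths is not given here, so nothing was read from these counts.

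**Figure D4:**
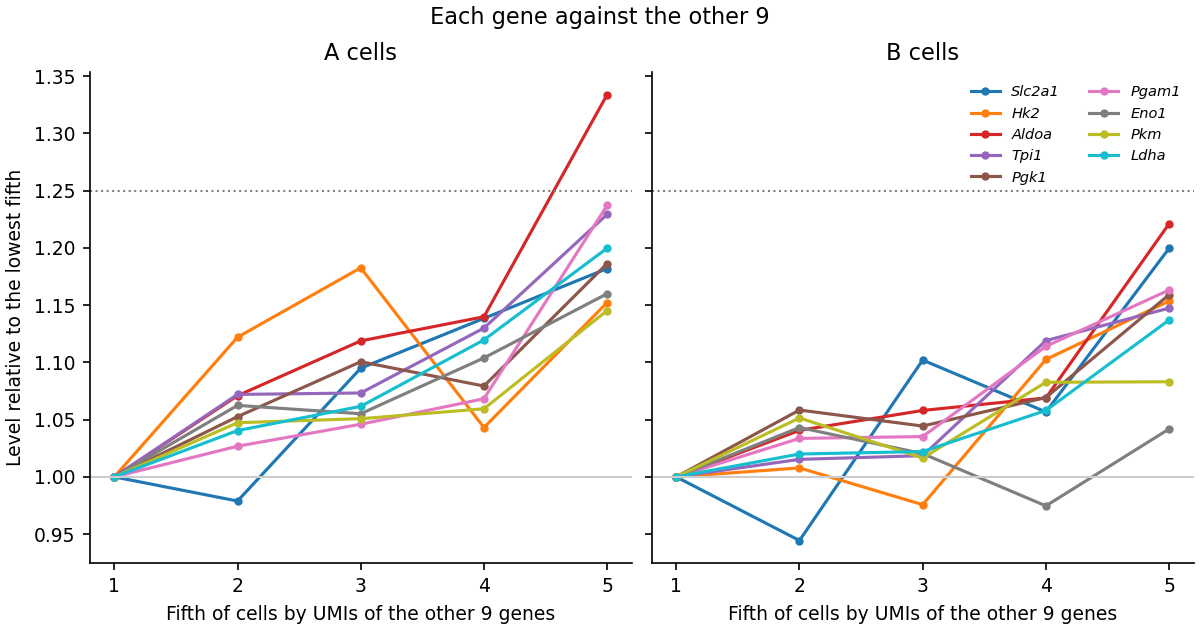
Level of each gene relative to the lowest bin (vertical axis, ratio) over 5 bins of cells ranked by the UMIs of the other 9 genes (horizontal axis), in A cells and in B cells; Pfkp is left out for its low counts and the dotted line marks 1.25. Aldoa in A cells, at 1.33, is the only line above it.

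Between the bottom and the top bin by the UMIs of all 10 genes, the values of depth and mitochondrial share were close. In A cells the median count of the 10 genes was 7 UMIs in the bottom and 17 in the top bin, the median depth before thinning 4786 and 4756 UMIs, and the median mitochondrial share 3.20% and 3.17%. The hypoxia target list had 831 CPM in the bottom and 1004 CPM in the top bin, and the mitosis list 1956 and 1503 CPM. In B cells the hypoxia list had 787 and 861 CPM and the mitosis list 1490 and 1355 CPM. Of the 5 hypoxia targets of at least 50 CPM, 1 passed 1.25-fold in A cells and 0 in B cells, beside the 2.05% and 1.28% of genes given above. It was Bnip3l, a mitophagy receptor, named with its value known, with a fold of 1.37 in A cells and 1.197 in B cells. The other 4 had folds of 1.11 (Egln1) to 1.22 (Higd1a) in A cells and 0.978 (Egln1) to 1.18 (P4ha1) in B cells. The part of these lists in the values of the 10 genes was not tested. Gapdh, the pathway's own middle step, went from 2357 to 2847 CPM in A cells and from 2798 to 3087 CPM in B cells. The gene most like the sum of the 10, by the lower r of both groups, was Gapdh, with 0.150 in A cells and 0.0804 in B cells. It was followed by Fth1 (0.0780 and 0.103), Krt19 (0.0761 and 0.113), Lgals3 (0.0904 and 0.0663) and Ly6a (0.0750 and 0.0653), among 3900 genes. Over those 3900 genes the median r was -0.0018 in A cells and -0.0032 in B cells, and the 99th percentile of the lower r was 0.0275. The part of abundance in this order was not tested.

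By the variance over the mean, Aldoa and Ldha in A cells and Pgk1 and Ldha in B cells had the widest spread over cells of the set. This measure, which is 1 for pure counting and is drawn towards 1 by thinning, was highest for Aldoa in A cells (1.21) and Pgk1 in B cells (1.199). Ldha had 1.2003 in A cells and 1.14 in B cells. Aldoa and Ldha in A cells lay above 92.8% and 92.4% of all genes of at least 50 CPM and above 77.5% and 76.5% of genes of at least 200 CPM. Pgk1 in B cells lay above 94.1% and 77.8%. By the squared coefficient of variation beyond counting, the order was another, with Pfkp first (0.968 and 1.13) and Hk2 next (0.332 and 0.247), both from few UMIs a cell. The lowest by variance over mean were Eno1, with 1.01 and 0.995, and Slc2a1, with 1.02 and 0.9997. The median over all genes of at least 50 CPM was 1.03 in both groups, and over genes of at least 200 CPM 1.08 in A cells and 1.07 in B cells.

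No gene of the set passed 1.5-fold between states inside the groups. Few of all genes did, so 0 of 10 does not set these genes apart. Within A cells, 1142 cells with S100g, Epcam and Tm4sf20 UMIs were compared with 2478 cells with Tnc, Acta2 and Ptchd4 UMIs. Of the 10 genes, 0 passed 1.5-fold, against 7.27% of 3809 genes higher and 2.86% lower. Slc2a1 came nearest, with 43.8 and 30.5 CPM, a fold of 1.43 (1.22 to 1.68), while Hk2 had 36.1 and 44.99 CPM. Within B cells, 541 cells with Krt14 and Sprr1a UMIs had 93.3 CPM of Hk2 and 665 CPM of Ldha, and 4714 cells with Areg, Btc and Cftr UMIs had 76.9 and 741 CPM. Again 0 of 10 passed, against 3.03% of genes higher and 1.79% lower. The 1038 B cells with a UMI of Cdkn1a, a cell-cycle inhibitor, had 873 CPM of Pgk1 and the other B cells 803 CPM, with 0 of 10 past 1.5-fold (all genes 0.149% higher and 0% lower).

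The top decile of A cells by the share of UMIs in mitosis genes, 781 cells, had 3789 CPM of the 10 genes together and the other A cells 4076 CPM, a fold of 0.930 (0.915 to 0.945). All 10 genes had a fold below 1, beside 54.6% of all genes, from 0.705 for Hk2 (30.2 and 42.8 CPM) to 0.963 for Tpi1. The interval lay below 1 for 7 of them and reached 1 for Slc2a1, Pfkp and Tpi1. Of the 10, 0 passed 1.5-fold, against 1.33% of genes lower and 3.05% higher. In B cells the top decile had 4098 CPM and the rest 4267 CPM, a fold of 0.960, with 9 of the 10 genes below 1, beside 53.7% of all genes, 3 of them with an interval below 1, and 0 past 1.5-fold (2.49% of genes higher and 0.878% lower). Hk2 had 78.3 and 81.8 CPM there. The sum in the top decile by replication genes was 4107 CPM in A cells and 4163 CPM in B cells, against 4040 and 4257 CPM in the rest. The fold was above 1 for 6 of the 10 genes in A cells, 2 of them with an interval above 1, beside 54.2% of all genes. It was below 1 for 9 of the 10 in B cells, 2 of them with an interval below 1, beside 43.2% of all genes, and lowest for Hk2 (68.5 and 82.7 CPM, 0.829, interval 0.737 to 0.930). Again 0 of 10 passed, against 2.07% of genes higher and 0.885% lower in A cells and 1.34% and 0.785% in B cells. A decile chosen for a high share of some genes has less room for others, and the part of that in these values was not tested.

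**Figure D5:**
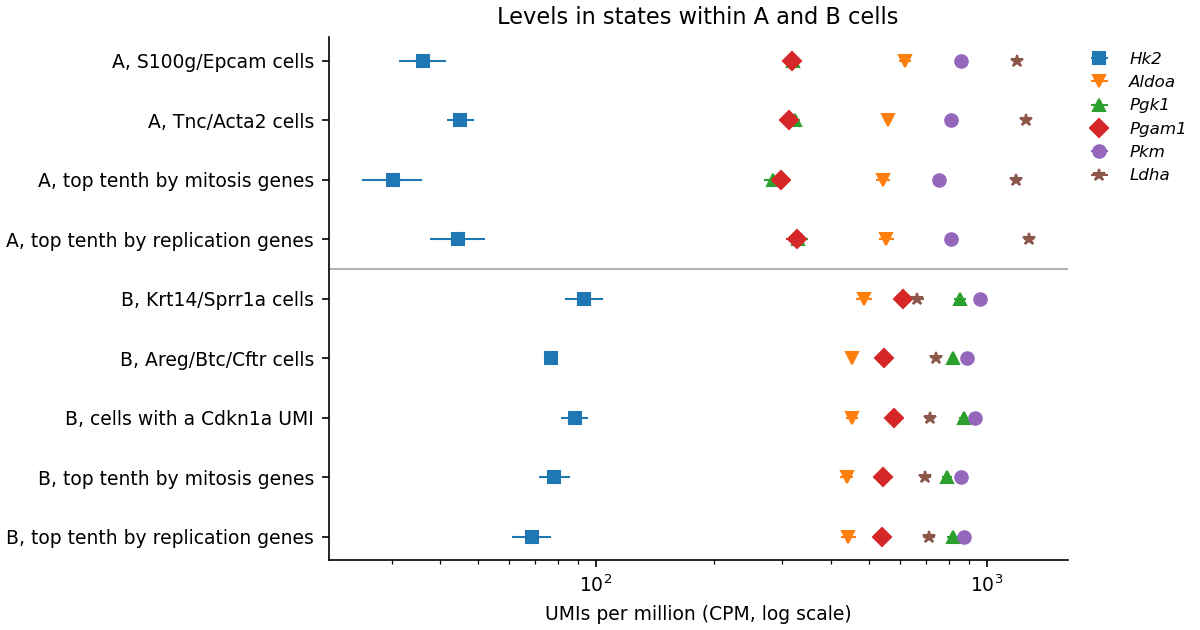
Level in CPM (log axis) of 6 of the genes in states within A cells (above the line) and B cells (below it), with exact Poisson intervals. Ldha lies to the right of Pgk1 in every A state shown and to its left in every B state shown, whereas Hk2 lies between 30.2 and 44.99 CPM in the A states and between 68.5 and 93.3 CPM in the B states.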

How the data were processed

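The deposited matrix gives raw, unscaled UMI counts for each feature in each barcode. The authors made it with Cell Ranger 8.0.1, per the file headers and the submitters' processing notes, which also name build GRCm39. The annotation and the authors' cell filter are not given in the sources used here. The genes, lists and cell rules were chosen with earlier results of these data known. Named are all 10 genes, list genes of at least 50 CPM past 1.5-fold, list genes that share a step with one of the 10, the 5 genes most like their sum, and others marked as chosen with their values seen or known.

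The cell filter asked for 2000 UMIs and 1000 genes or more, and a mitochondrial share of 15% or less. A and B cells held 40272805 and 52771426 UMIs, summed to CPM. Marked doublets were kept, except in 1 alternative: Scrublet in scanpy 1.11.5, at an expected rate of 0.08, marked 3.64% of passing cells, 1.87% of A cells and 2.33% of B cells. Statistics used numpy 2.4.6 and scipy 1.17.1 and were tested on simulated data. Cells are not replicates, so no test was made. Alternatives were other cell filters, scalings, depth and mitochondrial classes, thinning and gene minimums. Some genes of the lists are not reported here.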

Additional observations from a re-analysis of the deposited data

Results flagged for a closer look

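Cells that entered no comparison of the report also held RNA of the 10 genes, above what a count of 0 allows, with no control to set beside them. The 4609 cells in neither group had 4156 CPM of the 10 genes together, with 1057 CPM of Ldha and 504 CPM of Pgk1, between the A and B values. Of these, 643 had marker UMIs without a 3-fold excess of either group, of which 55.5% were marked as doublets. The 817 barcodes outside the cell filter, with a median of 1087 UMIs, had 2828 CPM of the 10 genes. Ldha had 673 CPM there and Pkm 655 CPM, while Hk2 had 91.5 CPM.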

How the results depend on the processing

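No paired analysis was possible because 1 library holds both groups and no replicate exists, so leaving out a replicate was not possible either. The same 4 genes, Hk2, Pgk1, Pgam1 and Ldha, passed 1.5-fold under 12 of 14 other settings at that fold, where 29.5 to 58.7% of all genes passed. Under 2% mitochondrial UMIs Hk2 did not pass (3 of 8 genes, beside 30.3% of all genes). Over 4%, with 33 B cells, Tpi1 passed too (5 of 9 genes, beside 46.5% of all genes). At 2-fold 1 gene passed, beside 14.3% of all genes. The summed log2 ratio of A over B, -0.0707, was -0.0540 without mitochondrial and ribosomal-protein genes, -0.0940 without the 50 most abundant features, -0.0834 for cells of 4000 to 6000 UMIs, -0.0543 for deeper cells and -0.0540 at 2 to 4% mitochondrial UMIs. It turned to 0.104 over 4%; the cause was not tested, and few B cells are left there. The median pairwise r, 0.0180 in A and 0.0134 in B cells, was 0.0141 in A cells with strict assignment, 0.00947 and 0.00581 at 2000 UMIs, 0.0269 in B cells at 6000 UMIs, 0.0146 in A cells as Spearman's rho, and 0.0140 in A cells as the mean of 10 other draws. Without thinning it was 0.0897 and 0.118, where depth differs between cells. Genes of the set past 1.25-fold between bins numbered 1 in A cells and 0 in B cells. At 2000 UMIs they numbered 2 in A cells, and at 6000 UMIs 5 in A and 2 in B cells. No share of other genes past that fold is given at 2000 or 6000 UMIs, so nothing was read from these counts. The share of cells with a UMI was higher in A cells for 4 of the 10 genes, and for 2 without thinning. No such count over all genes is given here, so the set cannot be compared with other genes on this. With a minimum of 10 CPM, chosen after seeing the data like the other draws, 14 list genes passed in place of 0. Causes not named were not tested. Depth limits Pfkp, Slc2a1 and all pairwise values.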
